A study of Mus musculus with 12 samples.

Results

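The genes described are 8 pan-leukocyte genes, *Ptprc*, *Cd53*, *Tyrobp*, *Cyba*, *Rac2*, *Coro1a*, *Lcp1* and *Arhgdib*, chosen by name out of the 37775 gene symbols of the count table. They are genes of blood-lineage cells in general, and their summed share of the counts was taken as a gauge of how much of a library is leukocyte RNA. Bulk RNA-seq was performed on 4 monocyte-macrophage (Mo-Mac) fractions of the skin lesion of IgE-mediated chronic allergic inflammation (IgE-CAI), in 12 libraries, 3 per fraction. The lesion was raised in the ear of WT BALB/c mice (adult males) by intravenous sensitization with 300 μg of anti-TNP IgE followed by an intradermal injection of 10 μg of TNP12-conjugated ovalbumin (OVA), and cells were sorted on day 5. The fractions were Ly6ChiPD-L2lo classical monocytes, Ly6ChiPD-L2hi early CMDMs (classical monocyte-derived macrophages), Ly6CloPD-L2hi late CMDMs and Ly6CloPD-L2lo resident-like macrophages, and mice, sensitization, challenge and day were the same for all of them. Total counts ran from 12537178 to 19844113 per library. The number of mice behind a library is not given in the sources used here, so the spread between libraries, and every p-value resting on it, may be technical. All fractions came from the CD45+CD11b+SiglecF-Ly6G- gate, and *Ptprc* encodes CD45 itself, so every sorted cell should carry its protein.

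Blood cells share a set of genes that other tissues hardly use. CD45 is a receptor tyrosine phosphatase that keeps Src-family kinases active, CD53 is a leukocyte tetraspanin, and DAP12, the product of *Tyrobp*, is the adaptor through which many activating myeloid receptors reach the kinase Syk. *Cyba*, which tissues outside the blood also use, encodes p22phox, the membrane partner of gp91phox in the phagocyte NADPH oxidase, and the hematopoietic GTPase Rac2 switches this oxidase on. Coronin-1A and L-plastin (*Lcp1*) organise the actin cortex, and the product of *Arhgdib* holds small GTPases inactive in the cytosol. Monocytes rebuild their cortex and surface as they turn into tissue macrophages.

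The upstream sequences of members at the extremes are shown because their levels differed most, as described afterwards. RefSeq promoter windows (GRCm38.p6) matched 6 of the 8 genes with 11 annotated starts, and *Rac2* and *Tyrobp* had no entry. The 120 bases before the first listed start are printed 5′ to 3′ for *Ptprc* (chr1:138175306-138175425, minus strand), *Coro1a* (chr7:126704817-126704936, minus strand), *Cyba* (chr8:122432941-122433060, minus strand) and *Lcp1* (chr14:75131003-75131122, plus strand). By the GENCODE positions given with each gene, the *Ptprc* and *Coro1a* windows lie inside the gene, downstream of its outermost start. Capitals mark the ETS core GGAAGT and the GC box GGGCGG, each on either strand.
Ptprc: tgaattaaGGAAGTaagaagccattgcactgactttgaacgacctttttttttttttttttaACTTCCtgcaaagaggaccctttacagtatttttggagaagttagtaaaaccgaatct
Coro1a: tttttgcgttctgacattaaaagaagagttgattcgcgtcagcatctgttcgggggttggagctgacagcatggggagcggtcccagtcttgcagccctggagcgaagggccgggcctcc
Cyba: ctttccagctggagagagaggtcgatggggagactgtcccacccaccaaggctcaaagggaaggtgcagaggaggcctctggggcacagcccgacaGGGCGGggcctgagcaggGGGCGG
Lcp1: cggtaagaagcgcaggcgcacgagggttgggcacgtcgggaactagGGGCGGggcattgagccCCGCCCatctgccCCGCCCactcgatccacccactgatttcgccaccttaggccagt
*Ptprc* held the ETS core 112 and 58 bases before its start and no GC box, whereas *Cyba* held GC boxes 24 and 6 bases before its start and *Lcp1* held them at 74, 57 and 44 bases. In the whole 250 bases before a start, the GC box lay in 4 of the 11 member windows, of *Arhgdib*, *Coro1a*, *Cyba* and *Lcp1*, against 32.7% of all 32851 windows of the table. The ETS core lay in 4 member windows, of *Ptprc*, *Lcp1* and *Arhgdib*, against 19.7% of all windows. Both *Ptprc* windows held the same core on the opposite strand, since they overlap. The longer PU.1 site GAGGAAGT, which contains the ETS core, lay in 0 member windows and in 2.44% of all windows. TGTGGT, the RUNX site, was found before the start of *Cd53* alone (14.0% of all windows), and TATAAA, the TATA box, before starts of *Ptprc* and *Arhgdib* (12.4%). Both strands were searched in each case, the motifs were chosen after the levels were known, and a match is a description of letters only.

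The summed share of the 8 genes was highest in classical monocytes and lowest in early CMDMs, and no library of a fraction overlapped with those of another. Of the total count, the 8 genes took 0.487%, 0.493% and 0.451% in the classical monocyte libraries and 0.142%, 0.117% and 0.185% in those of early CMDMs. They took 0.274%, 0.253% and 0.281% in late CMDMs and 0.363%, 0.373% and 0.362% for resident-like macrophages. Against the classical monocyte mean of 0.477% ± 0.0226 (SD, n = 3), the mean of early CMDMs stood at 31.1%, that of late CMDMs at 56.4% and that of resident-like macrophages at 76.7%. Each share rested on 18062 to 86450 counts. The widest 95% Wilson binomial interval, of classical monocyte replicate 1, ran from 0.483% to 0.490%, which covers counting error only. In bulk RNA, fewer leukocytes and less of this RNA per leukocyte cannot be told apart.

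The members did not move together by the same factor. Relative to classical monocytes, the mean level in early CMDMs was 15.6% for *Ptprc*, 16.1% for *Coro1a*, 20.3% for *Rac2*, 31.6% for *Tyrobp*, 35.7% for *Cd53*, 39.6% for *Arhgdib*, 41.9% for *Lcp1* and 54.9% for *Cyba*. A gauge read from *Ptprc* would thus put early CMDMs 6.41-fold under classical monocytes. Read from *Cyba*, whose highest mean was in late CMDMs and whose means spanned 1.88-fold, early CMDMs were the only fraction to stand apart. In late CMDMs the figures ran from 18.8% for *Coro1a* and 26.7% for *Ptprc* to 82.3% for *Lcp1* and 103% for *Cyba*, and in resident-like macrophages from 45.2% for *Rac2* to 114% for *Lcp1*. The make-up of the sum changed with it. *Ptprc* and *Coro1a* gave 15.8% and 14.0% of the 8-gene sum in classical monocytes but 7.48% and 4.64% in late CMDMs, while *Cyba* gave 11.8% and 21.5%.

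**Figure D1:**
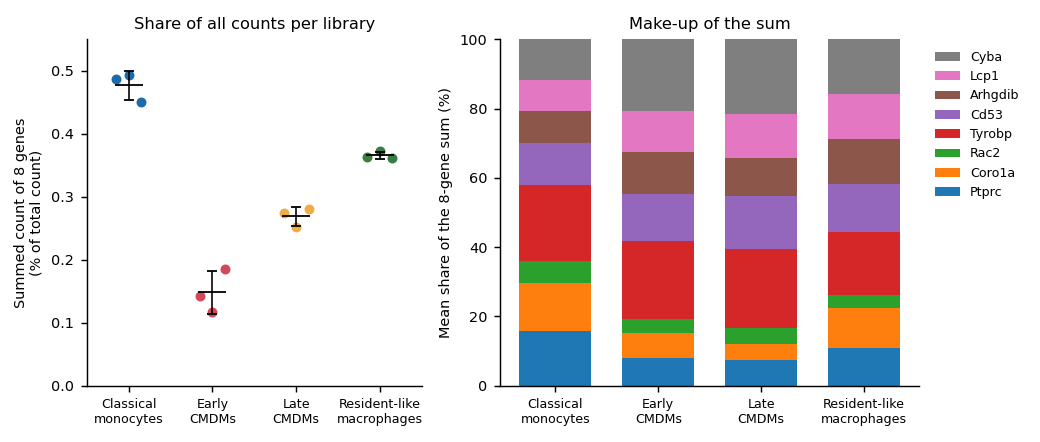
Left, summed count of the 8 genes as a percentage of the total count (y axis) in each library (dots) of the 4 fractions (x axis), with mean (line) and SD (bars, n = 3), where early CMDMs lie lowest, between 0.117% and 0.185%. Right, mean share of each gene in the 8-gene sum (stacked to 100%), in which *Cyba* takes 11.8% in classical monocytes and 21.5% in late CMDMs.

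Levels are given as CPM, counts scaled to a library total of 1000000, in the order of replicates 1, 2 and 3, and fold changes come from edgeR on the log2 scale after TMM normalization with the standard error (SE). Adjusted p-values of other genes come from the same quasi-likelihood fit, adjusted by Benjamini-Hochberg over all tested genes, and a gene is called at an adjusted p under 0.05. The 8 genes were chosen with their values known, so they are a description and carry no p-value. On the same fits, 44.9% of all 22118 tested genes were called between early CMDMs and classical monocytes (20.6% lower in early CMDMs), and 8 of the 8 members were called lower. Between late CMDMs and classical monocytes 35.6% of all genes were called (17.5% lower) and 6 members were called lower, and between resident-like macrophages and classical monocytes 23.7% of all genes (12.9% lower) and 4 members lower. The last count was 2 when any single one of 6 libraries was left out, which were classical monocyte replicates 1 and 2, late CMDM replicates 1 and 2, and resident-like macrophage replicates 1 and 3, and *Ptprc* and *Rac2* were the members called in each of these fits. Late exceeded early CMDMs in 7 members (31.9% of all genes called, 14.4% higher), resident-like macrophages exceeded early CMDMs in 8 (46.6% called, 21.4% higher and 25.1% lower) and late CMDMs in 5 (28.1% called, 12.7% higher). When libraries were scaled by 12 other pan-leukocyte genes, the members called in early CMDMs against classical monocytes were 2 higher and 3 lower, with 2 and 3 in late CMDMs and 3 and 2 for resident-like macrophages. Of all 22118 tested genes, 20296, 12720 and 5022 were called on that scale in these comparisons, in the same order. Nothing is read from the member counts, because the choice of the genes used the same values.

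Of the surface proteins, *Ptprc* (chromosome 1, 138062861 to 138175708, minus strand, GRCm38) had the widest span. For *Ptprc*, the classical monocyte libraries held 783, 796 and 681 CPM, those of early CMDMs 118, 99.4 and 136, those of late CMDMs 209.9, 198 and 194 and those of resident-like macrophages 438, 389 and 354. All 4 fractions stood apart, in the order classical monocytes, resident-like macrophages, late CMDMs, early CMDMs. The log2 fold change of *Ptprc* against classical monocytes was -2.67 (SE 0.13) in early CMDMs, -1.87 (SE 0.12) in late CMDMs and -0.77 (SE 0.12) in resident-like macrophages. The message of the protein on which every cell was gated was thus lowest in early CMDMs. *Itgam*, which encodes the other positive marker of the gate, CD11b, averaged 170.2 ± 31.1 CPM in classical monocytes and 76.6 ± 23.2 among early CMDMs, with 149 ± 4.69 among late CMDMs and 174 ± 11.5 among resident-like macrophages.

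*Cd53* (chromosome 3, 106759921 to 106790149, minus strand) kept the same order with a narrower span. For *Cd53*, the classical monocyte libraries held 565, 611 and 533 CPM, those of early CMDMs 191, 161 and 259, those of late CMDMs 426, 385 and 431 and those of resident-like macrophages 479, 526 and 518. Resident-like macrophages and classical monocytes were neighbours without overlap in CPM, yet their log2 fold change after TMM was 0.01 (SE 0.14) and changed sign with the scaling. The log2 fold change of *Cd53* in early CMDMs against classical monocytes was -1.47 (SE 0.14), which turned to 0.09 when libraries were scaled by other leukocyte genes.

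The DAP12 adaptor gene *Tyrobp* (chromosome 7, 30413760 to 30417585, plus strand) had a mean 3.16-fold higher in classical monocytes than in early CMDMs. For *Tyrobp*, the classical monocyte libraries held 1145, 1160.5 and 859.9 CPM, those of early CMDMs 322, 259.8 and 419, those of late CMDMs 648, 585 and 616 and those of resident-like macrophages 587, 760.4 and 648. Late CMDMs and resident-like macrophages overlapped, and the other fractions stood apart. Against classical monocytes the log2 fold change of *Tyrobp* was -1.65 (SE 0.17) in early CMDMs, -0.74 (SE 0.16) in late CMDMs and -0.49 (SE 0.16) in resident-like macrophages.

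The 2 oxidase genes went separate ways. For *Cyba* (chromosome 8, 122424776 to 122432930, minus strand), the classical monocyte libraries held 577, 566 and 538 CPM, those of early CMDMs 302, 227 and 394, those of late CMDMs 572, 526 and 638 and those of resident-like macrophages 570.0, 569 and 584. Classical monocytes, late CMDMs and resident-like macrophages overlapped or adjoined, and only early CMDMs were low. Early CMDMs differed from classical monocytes by a log2 fold change of -0.85 (SE 0.15) for *Cyba*, which turned to 0.71 under the scaling by other leukocyte genes, and late CMDMs by 0.09 (SE 0.15).
For *Rac2* (chromosome 15, 78559167 to 78572783, minus strand), the classical monocyte libraries held 323, 276 and 287 CPM, those of early CMDMs 62.9, 46.7 and 70.6, those of late CMDMs 125, 110.4 and 119.6 and those of resident-like macrophages 138, 134 and 129.6. Classical monocytes were far above all others, and late CMDMs and resident-like macrophages lay close together without overlap. The log2 fold change of *Rac2* against classical monocytes was -2.29 (SE 0.13) in early CMDMs, -1.28 (SE 0.13) in late CMDMs and, for resident-like macrophages, -0.97 (SE 0.13), the lowest of the 8 genes in that fraction. The ratio of *Rac2* to *Cyba* counts within a library, which no scaling can change, was 0.528 ± 0.0369 in classical monocytes and between 0.179 and 0.241 in the 9 libraries of the other fractions. This pair, and those of members given afterwards, were chosen after the values were seen.

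Of the cytoskeletal genes, *Coro1a* (chromosome 7, 126699773 to 126707787, minus strand) set both CMDM fractions apart from the others. For *Coro1a*, the classical monocyte libraries held 625, 641 and 729 CPM, those of early CMDMs 91.8, 89.6 and 141, those of late CMDMs 129, 117 and 129 and those of resident-like macrophages 462, 386 and 442. Early and late CMDMs overlapped, and *Coro1a* was the only member with a log2 fold change under 0.74 between them, at 0.24 (SE 0.15), which turned to -0.72 under the scaling by other leukocyte genes. Resident-like macrophages exceeded late CMDMs by a log2 fold change of 1.92 (SE 0.16). The ratio of *Coro1a* to *Cyba* counts was 1.08, 1.13 and 1.36 in classical monocytes, 0.304, 0.395 and 0.357 in early CMDMs, 0.225, 0.222 and 0.202 in late CMDMs and 0.811, 0.678 and 0.756 for resident-like macrophages. It was 5.51-fold lower in late CMDMs than in classical monocytes on average.

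*Lcp1* and *Arhgdib* behaved alike, with resident-like macrophages at least level with classical monocytes. For *Lcp1* (chromosome 14, 75131101 to 75230842, plus strand), the classical monocyte libraries held 396, 418 and 447 CPM, those of early CMDMs 169, 144 and 216, those of late CMDMs 333, 340.0 and 364 and those of resident-like macrophages 515, 486 and 430.2. For *Arhgdib* (chromosome 6, 136923655 to 136941899, minus strand), the classical monocyte libraries held 451, 461 and 436 CPM, those of early CMDMs 169, 146 and 219, those of late CMDMs 295, 264 and 317 and those of resident-like macrophages 439, 475 and 518. For both genes, resident-like macrophages and classical monocytes overlapped, and late and early CMDMs each stood apart. The log2 fold change of resident-like macrophages against classical monocytes was 0.35 (SE 0.13) for *Lcp1* and 0.26 (SE 0.13) for *Arhgdib*. In early CMDMs it was -1.25 (SE 0.13) and -1.33 (SE 0.14), and these turned to 0.33 and 0.25 under the scaling by other leukocyte genes.

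**Figure D2:**
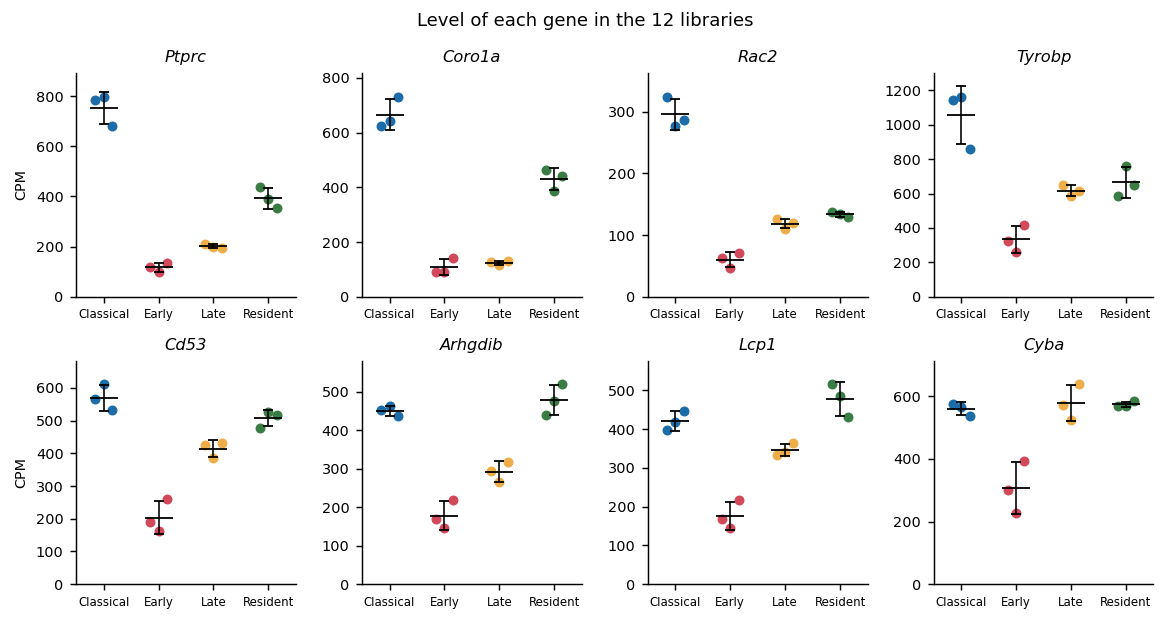
CPM (y axes, linear, from 0) of each of the 8 genes in the 12 libraries, by fraction (x axes), with dots for libraries 1, 2 and 3 from left to right, lines for the mean and bars for the SD (n = 3). *Ptprc*, *Coro1a* and *Rac2* are far higher in classical monocytes than in CMDMs, whereas on this scale *Cyba* is level in every fraction but early CMDMs.

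**Figure D3:**
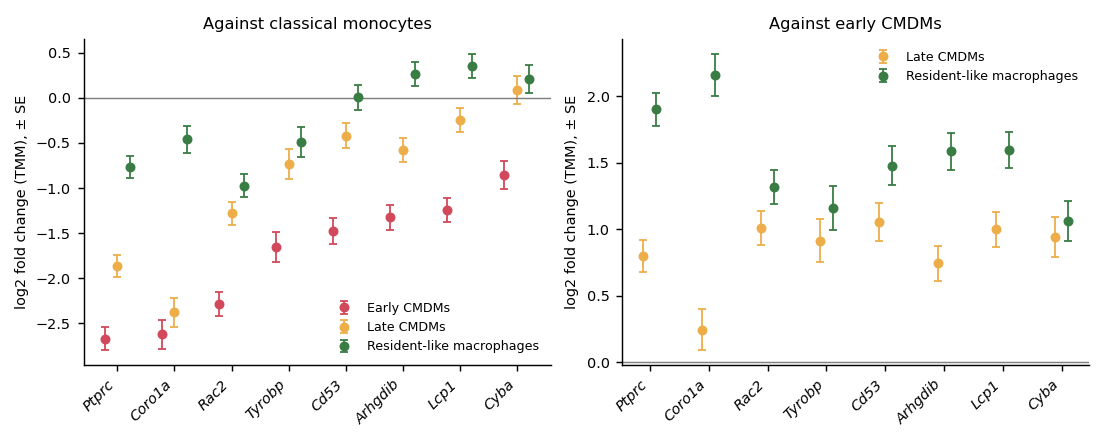
Log2 fold change (y axes) with its SE from edgeR after TMM for each gene (x axes), against classical monocytes (left) and against early CMDMs (right), with a grey line at 0. The fold change of early CMDMs runs from -2.67 for *Ptprc* to -0.85 for *Cyba*, and under scaling by other leukocyte genes those of *Cd53*, *Cyba*, *Lcp1* and *Arhgdib* change sign.

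Levels of different genes can be set side by side only per length, here as CPM per kilobase of the longest coding transcript. On this scale *Tyrobp* led in every fraction, with 1767 in classical monocytes and 559 in early CMDMs, followed by *Cyba* with 753 and 413. *Rac2* was the lowest in classical monocytes, at 97.3, and in early CMDMs, at 19.8. *Ptprc*, at 148 in classical monocytes, lay above *Lcp1*, at 109, but at 23.2 in early CMDMs it lay under *Lcp1*, at 45.9. *Ptprc* has the longest transcript of the 8 genes (5074 bases) and *Tyrobp* the shortest (597 bases).

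Within early CMDMs the 3 libraries differed in the same way for every member. Replicate 3 was the highest and replicate 2 the lowest of the fraction for 8 of 8 genes. In the other fractions no library was highest for more than 5 of the 8 genes or lowest for more than 6. The summed share of 6 keratinocyte markers (*Krt5*, *Krt14*, *Krt1*, *Krt10*, *Krt15* and *Dsp*) ran the other way, at 1.74% in replicate 3, 2.49% in replicate 1 and 2.80% in replicate 2. In the other 9 libraries this share lay between 0.191% and 0.420%, and none of the 6 markers was at 0 in any fraction. The summed share of 6 fibroblast markers in early CMDMs was also lowest in replicate 3, at 0.305%, against 0.439% in replicate 1 and 0.430% in replicate 2. The part of keratinocyte RNA in the lower share of early CMDMs was not tested.

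Markers of T cells, like *Ptprc*, *Coro1a* and *Rac2*, had their highest mean in classical monocytes. The sum of 6 such markers ranked the other fractions in the reverse order of *Ptprc*, but this order was set by *Thy1*. The sum averaged 343 CPM in classical monocytes, 182 in early CMDMs, 81.8 in late CMDMs and 59.7 for resident-like macrophages. *Thy1*, the largest of the 6, averaged 206, 163, 60.1 and 25.9 CPM, with the fractions listed as before. The summed fibroblast markers ranked the fractions like *Thy1*, at 0.471%, 0.391%, 0.0489% and 0.0295% of counts. The part of fibroblast RNA in the *Thy1* level was not tested. *Cd2* kept the order of *Ptprc* instead, at 47.6, 7.46, 10.5 and 17.5 CPM. *Cd3d*, *Cd3e* and *Cd3g* together had 86.7, 76.5 and 56.2 CPM in the classical monocyte libraries and between 9.22 and 18.2 CPM in the 9 other libraries. Their summed mean was 10.9 CPM in early CMDMs, 9.70 in late CMDMs and 14.1 for resident-like macrophages. On average, early CMDMs thus lay under resident-like macrophages for *Cd2* and for the CD3 genes. All 6 T cell markers were called lower than in classical monocytes in late CMDMs, as they were for resident-like macrophages, and 5 of 6 in early CMDMs by edgeR. With libraries scaled by other leukocyte genes, 5 were still called lower in early CMDMs and 1 was called higher. *Ptprc*, *Coro1a* and *Rac2* are also used by T cells, and the part of T cell RNA in their levels was not tested.

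To set the members against leukocyte RNA of the same libraries, 12 other pan-leukocyte genes were read. They took 0.510%, 0.536% and 0.523% of the counts in classical monocytes, 0.161%, 0.148% and 0.214% in early CMDMs, 0.336%, 0.319% and 0.353% in late CMDMs, and 0.405%, 0.386% and 0.404% for resident-like macrophages. The order of the fractions was that of the 8 genes. The sum of the 8 members over the sum of these 12 was 0.912 ± 0.0468 in classical monocytes, 0.848 ± 0.0473 in early CMDMs, 0.801 ± 0.0116 in late CMDMs and 0.919 ± 0.0398 for resident-like macrophages. When libraries were scaled by the 12 genes, the median log2 fold change of all genes moved to 1.59 in early CMDMs, 0.59 in late CMDMs and 0.22 for resident-like macrophages against classical monocytes. On that scale *Ptprc*, *Coro1a* and *Rac2* in early CMDMs were still at -1.08, -1.06 and -0.71 against classical monocytes, *Tyrobp* was at -0.08, and *Cd53*, *Arhgdib*, *Lcp1* and *Cyba* were at 0.09, 0.25, 0.33 and 0.71. On that scale *Ptprc*, *Coro1a* and *Rac2* were called lower, *Cyba* and *Lcp1* were called higher and the other 3 were not called, while after TMM all 8 were lower in early CMDMs relative to the median gene.
The 12 genes were themselves uneven. All 12 were called lower in early CMDMs than in classical monocytes, with a median log2 fold change of -1.66 beside -1.56 for the 8 members and -0.01 for all tested genes. *Cytip*, a regulator of integrin adhesion, averaged 924 ± 86.5 CPM in classical monocytes and 137 ± 20.4 among early CMDMs, with 126 ± 9.79 among late CMDMs and 587 ± 31.5 among resident-like macrophages, the pattern of *Coro1a*. *Laptm5*, a lysosomal protein of blood cells, was lower in early CMDMs by a log2 fold change of -1.26 (SE 0.17, edgeR adjusted p = 1.55e-05), which turned to 0.30 when scaled by the list that holds it, but did not pass the test in late CMDMs, where it was -0.19 (SE 0.17, edgeR adjusted p = 0.41).

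Partners of the members were read by pathway, each list with its count of genes called by edgeR. The 6 partner genes of the NADPH oxidase were all called lower in early CMDMs than in classical monocytes, with a median log2 fold change of -1.55, and 4 of 6 in late CMDMs (-0.84). *Cybb*, which encodes gp91phox, the partner that p22phox stabilises, averaged 819.7 ± 32.4 CPM in classical monocytes and 209 ± 46.2 among early CMDMs, with 344 ± 46.8 among late CMDMs and 499 ± 41.3 among resident-like macrophages. Its log2 fold change in late CMDMs against classical monocytes was -1.22 (SE 0.15, edgeR adjusted p = 6.75e-06), where *Cyba* was level. *Ncf1*, the cytosolic organiser p47phox, differed there by -1.14 (SE 0.20, edgeR adjusted p = 0.000427). Under the scaling by other leukocyte genes, the median of this list in early CMDMs turned to 0.03, with 2 genes called higher and 2 lower.

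Among 11 genes of DAP12-coupled receptors, a related adaptor and kinases, 10 were called lower in early CMDMs than in classical monocytes and 0 higher, while *Tyrobp* itself stood at 31.6%. *Trem2*, a lipid-sensing DAP12 receptor of macrophages, was the exception and averaged 83.0 ± 25.5 CPM in classical monocytes and 120.5 ± 36.8 among early CMDMs, with 287 ± 36.2 among late CMDMs and 185 ± 30.5 among resident-like macrophages. It was higher in late CMDMs than in classical monocytes by a log2 fold change of 1.82 (SE 0.24, edgeR adjusted p = 5.29e-05). *Siglech*, a DAP12-coupled lectin known from plasmacytoid dendritic cells, went the other way, with 217 to 417 CPM in the classical monocyte libraries and 12.9 to 44.5 CPM in the 9 others. *Syk*, the kinase downstream, averaged 497 ± 69.3 CPM in classical monocytes and 139 ± 28.9 among early CMDMs, with 208 ± 11.4 among late CMDMs and 266 ± 43.7 among resident-like macrophages. Its log2 fold change in early CMDMs against classical monocytes was -1.83 (SE 0.16, edgeR adjusted p = 1.44e-07). Under the scaling by other leukocyte genes the median of the list in early CMDMs was -1.41, against -2.99 before.

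For CD45, 8 genes of its associated protein, of the Src-family kinases it acts on and of the regulators Csk and SHP-1 were read, and all 8 were called lower in early and in late CMDMs than in classical monocytes. *Lyn*, a Src-family kinase of myeloid cells, averaged 249.6 ± 1.96 CPM in classical monocytes and 54.3 ± 12.2 among early CMDMs, with 83.4 ± 2.70 among late CMDMs and 125 ± 13.1 among resident-like macrophages. Its levels kept the order of *Ptprc*, and its log2 fold change in early CMDMs was -2.19 (SE 0.14, edgeR adjusted p = 4.76e-09). *Lck*, the Src-family kinase of T cells, had 31.4 ± 6.56 CPM in classical monocytes and between 1.36 and 2.76 CPM elsewhere. *Csk*, which is not restricted to blood cells, had a log2 fold change of -0.84 (SE 0.12, edgeR adjusted p = 3.70e-05) in early CMDMs, which turned to 0.74 under the scaling by other leukocyte genes. On that scale 6 of the 8 genes were still called lower and 1 higher.

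The 13 other actin regulators of leukocytes were all called lower in early CMDMs than in classical monocytes (median log2 fold change -1.52) and all called higher in late than in early CMDMs (0.81). Between resident-like macrophages and classical monocytes 1 of the 13 was called, lower, with a median of -0.05. *Lsp1*, a leukocyte F-actin-binding protein, averaged 477 ± 60.5 CPM in classical monocytes and 63.7 ± 3.94 among early CMDMs, with 82.8 ± 8.62 among late CMDMs and 499 ± 19.0 among resident-like macrophages. Like *Coro1a* it was low in both CMDM fractions, and resident-like macrophages exceeded late CMDMs by a log2 fold change of 2.72 (SE 0.12, edgeR adjusted p = 3.37e-10). *Nckap1l*, which encodes HEM1 of the WAVE complex, resembled *Cyba* instead and averaged 108 ± 20.4 CPM in classical monocytes and 60.2 ± 18.8 among early CMDMs, with 124 ± 9.54 among late CMDMs and 118 ± 19.2 among resident-like macrophages. Under the scaling by other leukocyte genes the median in early CMDMs turned to 0.05, and that of late against early CMDMs to -0.16.

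Each of 6 members was also set against a widely expressed relative in the same library, a ratio of counts that no scaling can change but that is not corrected for transcript length. The ratio of *Ptprc* to *Ptpra*, a receptor phosphatase of most tissues, was 10.2, 9.40 and 7.59 in classical monocytes, 1.29, 1.09 and 1.41 in early CMDMs, 1.95, 1.71 and 1.80 in late CMDMs and 3.57, 3.53 and 3.49 for resident-like macrophages. *Lcp1* over *Pls3*, the plastin of non-blood cells, was 18.5, 18.1 and 27.0 in classical monocytes, 2.12, 1.57 and 3.54 in early CMDMs, 10.7, 9.27 and 10.6 in late CMDMs and 32.1, 29.9 and 33.1 for resident-like macrophages. All 4 fractions stood apart in both ratios.
*Rac2* over the ubiquitous *Rac1* averaged 0.816 ± 0.108 in classical monocytes, 0.207 ± 0.0321 among early CMDMs, 0.363 ± 0.0355 among late CMDMs and 0.316 ± 0.0144 among resident-like macrophages. Unlike *Rac2* alone, this ratio overlapped between the last 2 fractions, and *Rac1* itself was higher in resident-like macrophages than in late CMDMs by a log2 fold change of 0.51 (SE 0.10, edgeR adjusted p = 0.000963). *Coro1a* over *Coro1b* averaged 2.78 ± 0.133 in classical monocytes, 0.658 ± 0.138 among early CMDMs, 0.576 ± 0.0126 among late CMDMs and 2.30 ± 0.0695 among resident-like macrophages. The ubiquitous coronin thus had more counts than the leukocyte coronin in all 6 CMDM libraries and fewer in the other 6.
*Cd53* over the tetraspanin *Cd9* averaged 3.60 ± 0.616 in classical monocytes, 0.434 ± 0.181 among early CMDMs, 2.24 ± 0.386 among late CMDMs and 1.56 ± 0.0547 among resident-like macrophages. *Arhgdib* over *Arhgdia*, the ratio with the narrowest span, averaged 0.973 ± 0.0748 in classical monocytes, 0.577 ± 0.0474 among early CMDMs, 0.696 ± 0.0426 among late CMDMs and 0.863 ± 0.0642 among resident-like macrophages. The relatives moved too, and *Pls3* and *Cd9* in early CMDMs exceeded classical monocytes by log2 fold changes of 1.94 (SE 0.15, edgeR adjusted p = 4.65e-08) and 1.60 (SE 0.15, edgeR adjusted p = 2.46e-07). Both are also genes of epithelial cells, whose markers were highest in that fraction, and that part was not tested. Of the 13 widely expressed relatives tested, 7 passed the test as higher in early CMDMs and 3 as lower, with a median log2 fold change of 0.77, whereas under the scaling by other leukocyte genes all 13 were higher (2.36). Of 10 housekeeping genes 3 were higher and 3 lower, with a median of -0.03, and all 10 were higher under that scaling (1.58).

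**Figure D4:**
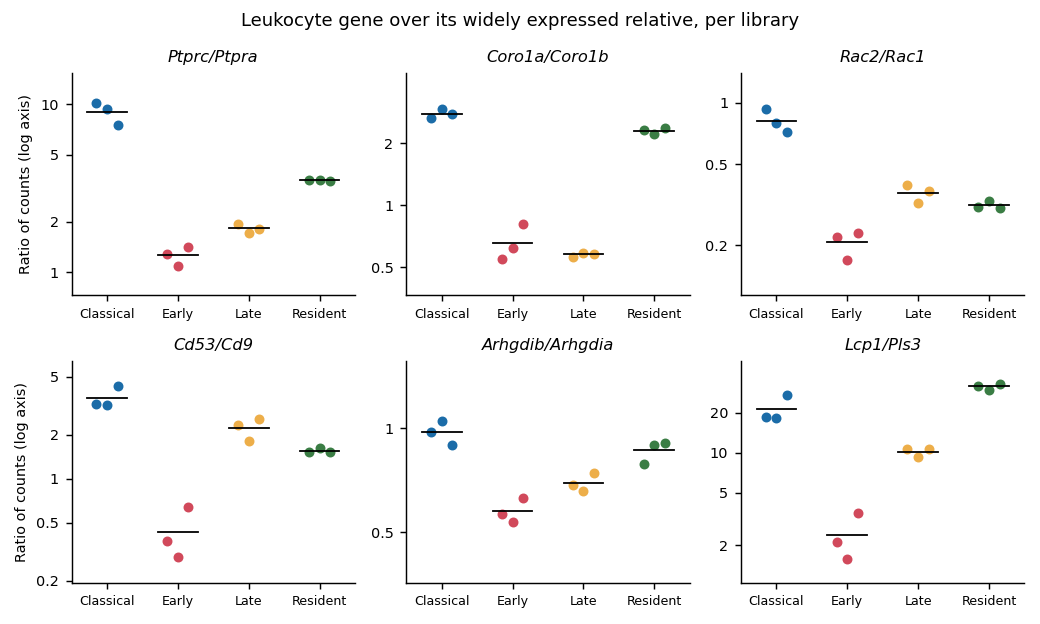
Ratio of the counts of a leukocyte gene to those of a widely expressed relative (y axes, log scale) in each library (dots) by fraction (x axes), with a line at the mean of 3 libraries. Early CMDMs have the lowest ratio in every panel except that of *Coro1a*, where they overlap with late CMDMs, whose mean is 0.576.

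The mean log2 CPM of the 8 genes was compared across the 12 libraries with each tested gene outside the gene lists and markers. The partner genes, the other pan-leukocyte genes and the markers were thus not ranked. This is a description of likeness in libraries that share depth and composition. Of the genes ranked, those closest to the mean were *Glipr1* (Pearson r = 0.994), *C920009B18Rik* and the inhibitory receptor gene *Cd300a* (both 0.992). Next came *Adgre5*, which encodes CD97, and *Ifngr2*, a chain of the interferon-γ receptor (both 0.988). *Adgre5* was highest in classical monocytes and lowest in early CMDMs, at means of 566 and 161 CPM, and lay at 268 CPM in late CMDMs and 469 CPM for resident-like macrophages. Of the members themselves, *Ptprc* lay closest to the mean of the 8 (0.972) and *Cyba* farthest (0.833). Each member is part of that mean, so these values cannot be set beside those of the other genes.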

How the data were processed

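RNA was sequenced from 12 libraries after selection with oligo(dT). The authors trimmed reads with cutadapt 4.1, mapped them on 1 strand with Bowtie2 2.4.5 to reference RNA of Ensembl release 101 (GRCm38), and deposited raw read counts summed by gene symbol, so reads of near-identical genes may be split between symbols. The table held 37775 symbols in 12 columns, all of which were used, and total counts of 12537178 to 19844113. Levels were CPM of the total count, for which 3 counts were taken as the floor, and the 8 genes all passed the filter on low counts. Comparisons were fitted in R 4.3.3 with edgeR 4.0.16 (TMM, filterByExpr, robust quasi-likelihood, all 12 libraries, 1 coefficient per fraction), with Benjamini-Hochberg adjustment over 22118 genes and a threshold of 0.05. The script was tested on simulated data. Replicates differed by more than counting noise in each pair, and none was counted as a duplicate.

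The 8 genes, the gene lists and the markers were chosen with earlier results of these data known. Named were the 8 genes and 6 ratios to a relative. Of each list, up to 3 genes of highest mean CPM were named, with those of highest and lowest fold change in early CMDMs. So were the 5 tested genes outside the lists most correlated with the mean of the 8. *Itgam*, the CD3 genes, the ratios between members and the promoter motifs were added after values were seen. Alternatives were DESeq2 1.42.0, other scalings (RLE, library size, DEGES in 3 rounds, and the 12 other pan-leukocyte genes), other filters and thresholds, a replicate block, and leaving out each library. Positions and transcript lengths are those of GENCODE M21 on GRCm38.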

Additional observations from a re-analysis of the deposited data

How the results depend on the processing

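Over all alternatives to the fold changes of the members, 975 values kept direction and call, 40 kept direction but were no longer called, 15 became called and 26 changed sign. Scaling by the 12 other pan-leukocyte genes gave most of the sign changes. In early CMDMs against classical monocytes it put *Cd53* at 0.094, *Cyba* at 0.71, *Lcp1* at 0.33 and *Arhgdib* at 0.25, and in late CMDMs *Cd53* at 0.18, *Lcp1* at 0.36 and *Arhgdib* at 0.015. In late against early CMDMs it gave -0.18 for *Ptprc*, -0.053 for *Tyrobp*, -0.025 for *Cyba*, -0.72 for *Coro1a* and -0.23 for *Arhgdib*. Resident-like macrophages were then at -0.19 for *Tyrobp*, -0.28 for *Cyba* and -0.043 for *Rac2* against early CMDMs, and at -0.13, -0.25 and -0.072 against late CMDMs. By construction this scaling removes the drop in the summed count of the 12 genes, which rested mainly on *Srgn* and *Laptm5*. *Cd53* in resident-like macrophages against classical monocytes, 0.01, was -0.0032 with DESeq2, -0.0023 with RLE, -0.17 with library size only and -0.019 with DEGES, and ran from -0.027 to 0.059 when 1 library was left out. *Cyba* in resident-like macrophages against late CMDMs was -0.011 with library size only, which moves the median of all genes by -0.13.

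Members called fell under the leukocyte scaling to 5 between early CMDMs and classical monocytes, 1 between late and early CMDMs, and 2 and 3 between resident-like macrophages and early or late CMDMs. Calls among all tested genes rose instead, to 20296, 16926, 19398 and 7875 in these comparisons, against 9925, 7045, 10297 and 6225 after TMM. Where a log2 fold change of 1 or more in size was also asked for, 3 were called between late CMDMs and classical monocytes, 0 between resident-like macrophages and classical monocytes, 3 between late and early CMDMs and 2 between resident-like macrophages and late CMDMs. At an adjusted p under 0.01, 2 were called between resident-like macrophages and classical monocytes, where leaving out 1 library gave 2 to 5. The other causes were not tested.

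The order of the fractions by the 8-gene share was the same under all 7 settings, the one reported included. Without the ribosomal RNA symbol the share was 0.527% in classical monocytes, 0.2996% in late CMDMs and, for resident-like macrophages, 0.403%. Without the 6 genes over 1% of counts it was 0.540%, 0.306% and 0.428%. Without the keratinocyte and fibroblast markers in the total it was 0.481%, 0.270% and 0.367%, and 0.152% in early CMDMs against 0.148% as reported. That setting takes out the counts of the markers only. The share was 0.397% in resident-like macrophages with TMM library sizes. Without *Ptprc* in the sum it was 0.402%, 0.249% and 0.327%, and without *Tyrobp* 0.371%, 0.207% and 0.299%. Smaller sums and totals move it by construction.

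Replicate numbers were not used to pair the samples, and the sources used here do not say whether equal numbers mark the same mice. Of 18 same-number pairs, 4 had deviations correlated over 0.1 (from -0.0987 to 0.248), and 9 of 12 libraries correlated best with their own number. These values cannot decide whether the samples were paired, because no cut-off for pairing is known. With the replicate block, 8, 6, 5, 7, 8 and 6 members were called, in the order in which the 6 comparisons were described, against 8, 6, 4, 7, 8 and 5 without it. Calls among all tested genes rose in each comparison too, to 10322, 8440, 5728, 7565, 10656 and 6799 from 9925, 7869, 5251, 7045, 10297 and 6225. *Lcp1* in resident-like macrophages against classical monocytes (0.36) and *Rac2* against late CMDMs (0.31) became called.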

Other observations

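Monocyte and macrophage markers, a list of 10 genes, took 0.387% of counts in early CMDMs, against 0.962% in classical monocytes, 0.789% in late CMDMs and 1.03% for resident-like macrophages. The 8 pan-leukocyte genes over these markers gave a ratio of 0.501 ± 0.0680 in classical monocytes and of 0.342 to 0.382 on average in the other fractions. The sum rested mostly on *Lyz2*, whose mean CPM was 6026 in classical monocytes against 1818 in early CMDMs, and on *Cd14*, with 1705 against 381, whereas *Csf1r* had 408 against 403 and *Adgre1* 87.7 against 89.4. Under edgeR 6 of the 10 were called lower in early CMDMs than in classical monocytes and 0 higher, and under scaling by the 12 other pan-leukocyte genes 2 were called lower and 7 higher.

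Fibroblast markers took 0.471% of counts in classical monocytes and 0.391% in early CMDMs, but 0.0489% in late CMDMs and 0.0295% for resident-like macrophages, and 6 of 6 were called lower in late CMDMs than in classical monocytes. Dendritic cell markers took 0.131% of counts in resident-like macrophages and 0.0280% or less on average elsewhere. This sum came from *Cd207*, whose mean CPM was 754 in resident-like macrophages against 39.6 in classical monocytes, and *Cd209a*, with 511 against 146, while *Flt3* had 24.9 against 71.5. Endothelial markers took 0.0162% and 0.0165% in early and late CMDMs, 0.00816% in classical monocytes and 0.00586% for resident-like macrophages. Most of this sum was *Pecam1*, whose mean CPM was 105, 106, 55.6 and 39.2 in the same order. Neutrophil markers took 0.00841% to 0.0125% of counts on average per fraction, and basophil and mast cell markers 0.00184% to 0.0127%. *Csf3r* gave most of the neutrophil sum, with mean CPM of 82.3 in classical monocytes, 56.6 in early CMDMs, 106 in late CMDMs and 58.6 for resident-like macrophages. B cell, melanocyte, skeletal muscle and adipocyte markers each took 0.00569% or less on average in every fraction.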
